A study of Homo sapiens with 4 samples.

Results

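The mitochondrial genome transcripts are the 37 genes whose symbol starts with MT-, of 61806 genes in the count table: 13 mRNAs, 2 rRNAs and 22 tRNAs. They were chosen by name alone, and all 37 were found. The RNA came from U118-MG, an established human glioma line, in 2 groups of 2 libraries. Cells of the NC group carried a lentiviral negative control and those of the SPNS2 group the overexpression vector pCDH-CMV-MCS-EF1-puro with the cDNA of SPNS2, a membrane transporter that exports sphingosine-1-phosphate. The labels give the genotype of all samples as WT, and cells of both groups grew in DMEM with fetal bovine serum. SPNS2 itself read 1.31 and 1.40 CPM in NC and 240 and 246 CPM in SPNS2, where CPM is a count scaled to the size of its library, corrected for composition by edgeR's TMM.

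Human mitochondria keep a small circular genome of their own. It is copied into long RNAs from both strands, the heavy-strand transcript carrying most genes, and the tRNAs that lie between the other genes are cut out to free the mRNAs and rRNAs. The mRNAs encode core subunits of complexes I, III and IV of the respiratory chain and of complex V, the ATP synthase. All other subunits, and every protein that copies, cuts, stabilises and translates these RNAs, come from nuclear genes.

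Total counts were 31513400 to 34125159 per library. VIM and CD44, which mesenchymal glioma cells express, read 4392 and 335 CPM in NC and 6524 and 393 CPM in SPNS2 (edgeR adjusted p = 0.0205 and 0.117). NES, of neural progenitors and glioma, read 18.8 CPM in NC and 10.5 CPM in SPNS2 (0.0243), while the glial markers GFAP, S100B, OLIG2 and SOX2 had 0 to 8 counts in each library. Of markers of other cell types, PTPRC, EPCAM, CDH1, HBB and ALB had 0 to 10 counts, and PECAM1, of endothelial cells, read 3.03 CPM in NC and 6.38 CPM in SPNS2 (edgeR adjusted p = 0.0465). The part of these differences in the results below was not tested. Whether replicate libraries stem from independent cultures is not stated in the labels, and the p-values therefore cover only the variation among these 4 samples, possibly technical in part.

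On the reference chromosome M of GRCh38 (GENCODE 29), 12 mRNA genes, both rRNA genes and 14 tRNA genes lie on one strand, and MT-ND6 and 8 tRNA genes on the other. None has an intron, most neighbouring genes touch or lie a few bases apart, and 5 pairs overlap, so that a read can span more than 1 gene. MT-ATP8 (M:8366-8572) and MT-ATP6 (M:8527-9207) are read from 1 RNA in different frames and share 46 bases. MT-ND4L (M:10470-10766) and MT-ND4 (M:10760-12137) share 7 bases. The stretch common to each pair, from GENCODE 29, is shown with the start codon of the downstream gene and the stop codon of the upstream gene in capitals.

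MT-ATP8 and MT-ATP6: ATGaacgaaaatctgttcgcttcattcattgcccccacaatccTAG

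MT-ND4L and MT-ND4: ATGcTAA

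Of the 13 mRNAs, 6 end in T or TA, a stop codon that is completed to TAA only when the poly(A) tail is added, and 7 end in a whole stop codon. The last 30 bases of 2 mRNAs of each kind are shown with the encoded part of the stop in capitals. MT-CO1 ends in AGA, its annotated stop.

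MT-ND1: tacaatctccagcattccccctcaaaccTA

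MT-CYB: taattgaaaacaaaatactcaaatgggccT

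MT-CO1: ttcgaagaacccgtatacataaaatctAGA

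MT-ATP6: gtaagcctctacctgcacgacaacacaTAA

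The 3 classes of mitochondrial RNA did not move together. The 37 genes took 4.06% and 3.95% of all counts in NC and 3.35% and 3.36% in SPNS2, a difference of -0.647 percentage points with groups that did not overlap. The 95% Wilson interval of each share is at most 0.00689 points to either side and, like other intervals of this kind, covers counting error only. The mRNAs made up 3.79% and 3.70% of counts in NC and 3.03% and 3.06% in SPNS2. The rRNAs went the other way, with 0.258% and 0.249% in NC and 0.311% and 0.302% in SPNS2. The tRNAs made up 0.00444% and 0.00442% in NC and 0.00256% and 0.00278% in SPNS2, a very small share in all 4 libraries. In bulk RNA, fewer transcripts per cell and fewer cells that carry them cannot be told apart.

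Single genes were compared by edgeR's quasi-likelihood test over 17853 genes, and a gene is called higher or lower at a Benjamini-Hochberg adjusted p under 0.05. MT-TW, a tRNA gene with 4 to 9 counts per library, was too low to test, and the other 36 were tested. Of the 13 mRNAs, 7 fell, 0 rose and 6 were not called. Over all genes tested, 11.3% were called lower and 12.1% higher. The count of mRNAs called lower was 3 without NC replicate 1, 4 without NC replicate 2 or SPNS2 replicate 1, 5 without SPNS2 replicate 2 and 4 with DESeq2. The median log2 fold change of the 13 mRNAs was -0.18, between -0.43 for MT-ND1 and 0.09 for MT-CYB, against a median of -0.01 over all genes. In 9 mRNAs both SPNS2 libraries lay below both NC libraries, in 2 above, and in 2 the groups overlapped, where 33.6% of all genes tested lay below and 32.4% above.

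**Figure D1:**
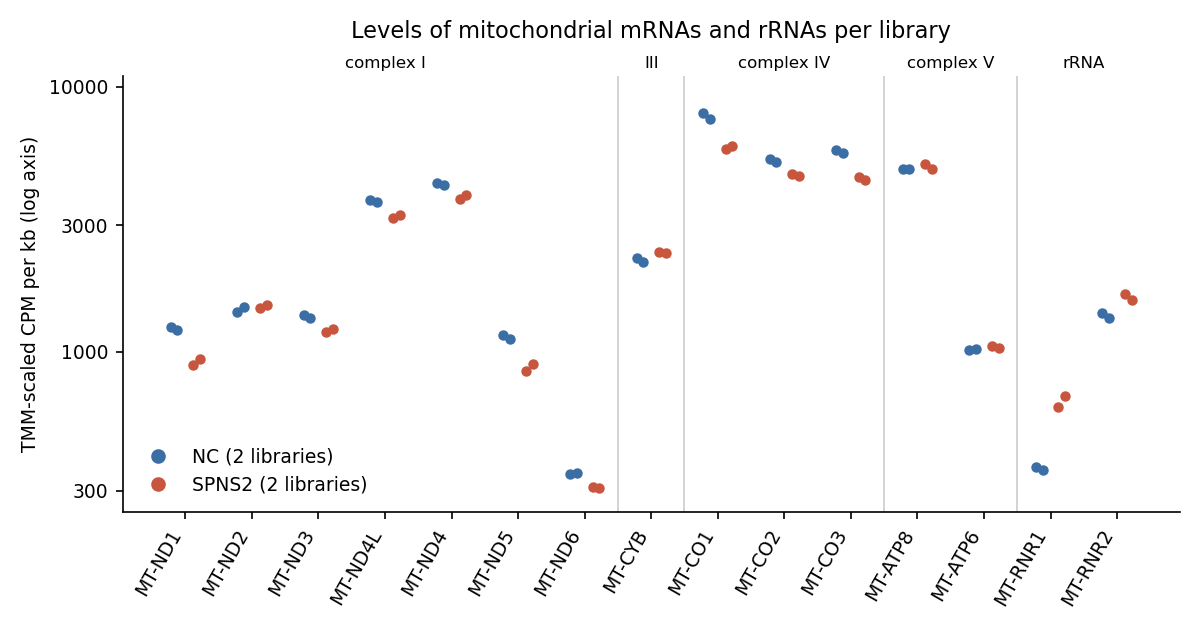
TMM-scaled CPM per kb of gene length (log axis) of the 13 mRNAs and 2 rRNAs, with 1 point per library (NC blue, SPNS2 red), grouped by the complex that the product joins. MT-CO1, MT-CO2 and MT-CO3 of complex IV lie lower in both SPNS2 libraries, and MT-RNR1 shows the widest step upward. In complex V, the 4 points of MT-ATP8 lie close to one another, and so do those of MT-ATP6 at a lower level.

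Complex I, the NADH dehydrogenase that feeds electrons into the chain, takes 7 mitochondrial subunits, of which 4 mRNAs fell and 3 were not called. The share called lower over all genes was 11.3%. MT-ND1, a membrane subunit near the site where the complex binds ubiquinone, had 1192 and 1161 CPM in NC and 851 and 897 CPM in SPNS2. Both SPNS2 libraries were well below both NC libraries, a 1.35-fold fall (log2 fold change -0.43, SE 0.048, edgeR adjusted p = 0.00863). MT-ND5, a proton-pumping subunit at the far end of the membrane arm, had 2107 and 2028 CPM in NC and 1534 and 1638 CPM in SPNS2. It fell 1.30-fold (log2 fold change -0.38, SE 0.050, edgeR adjusted p = 0.0122), a call that was lost without NC replicate 1 (adjusted p = 0.0560).

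MT-ND2, another proton-pumping subunit, did not share that direction. It had 1480 and 1535 CPM in NC and 1526 and 1565 CPM in SPNS2, so the groups overlapped (log2 fold change 0.04, SE 0.041, edgeR adjusted p = 0.577). MT-ND1 and MT-ND2 are neighbours on the heavy-strand transcript with only tRNA genes between them. Per kb, MT-ND1 stood at 0.878 and 0.824 of MT-ND2 in NC and at 0.608 and 0.625 in SPNS2.

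MT-ND4 and MT-ND4L, which are read from 1 RNA, fell by like amounts. MT-ND4 had 5982 and 5891 CPM in NC and 5199 and 5385 CPM in SPNS2 (log2 fold change -0.17, SE 0.032, edgeR adjusted p = 0.0300). MT-ND4L had 1113 and 1089 CPM in NC and 948 and 973 CPM in SPNS2 (log2 fold change -0.20, SE 0.041, edgeR adjusted p = 0.0369). The groups did not overlap for either gene, and their level ratio per kb moved little, from 0.863 and 0.857 in NC to 0.846 and 0.839 in SPNS2. These small changes were at the edge of the test. The MT-ND4L call was lost without any 1 of the 4 libraries (adjusted p from 0.0699 to 0.144) and with DESeq2 (0.0634), and the MT-ND4 call was lost with DESeq2 (0.129) and without NC replicate 1 (0.108), NC replicate 2 (0.0853) or SPNS2 replicate 1 (0.0666).

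MT-ND3 and MT-ND6 lay lower in both SPNS2 libraries but were not called. MT-ND3, a small subunit, had 478 and 465 CPM in NC and 413 and 422 CPM in SPNS2 (log2 fold change -0.18, SE 0.048, edgeR adjusted p = 0.0659). MT-ND6 is the only mRNA made from the light-strand transcript, and it had 181 and 184 CPM in NC and 162 and 161 CPM in SPNS2 (log2 fold change -0.18, SE 0.054, edgeR adjusted p = 0.0823). MT-ND5, its neighbour on the other strand, stood per kb at 3.37 and 3.19 times MT-ND6 in NC and at 2.74 and 2.95 times in SPNS2. MT-ND5 (M:12337-14148) and MT-ND6 (M:14149-14673) touch but share no bases. Reads from opposite strands of the same stretch can be told apart only if the counting used strand. The strand setting is not given in the sources used here. For genes that overlap on the same strand, such as MT-ATP8 and MT-ATP6, strand does not separate the reads.

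Complex IV, the cytochrome c oxidase that passes electrons to oxygen, takes 3 mitochondrial subunits, and the mRNAs of all 3 fell. The share called lower over all genes was 11.3%. MT-CO1, the catalytic subunit with the haem and copper site, was the most abundant mitochondrial mRNA, with 12284 and 11697 CPM in NC and 8971 and 9203 CPM in SPNS2. The groups lay far apart compared with the spread within them (log2 fold change -0.40, SE 0.035, edgeR adjusted p = 0.00491). MT-CO3, a core subunit without metal centres, had 4533 and 4413 CPM in NC and 3586 and 3492 CPM in SPNS2 (log2 fold change -0.34, SE 0.034, edgeR adjusted p = 0.00658). The calls of MT-CO1, MT-CO3 and MT-ND1 on the scale of the whole library held under every alternative run for them, with each library left out in turn included.

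MT-CO2, which receives the electrons from cytochrome c, fell less. It had 3656 and 3568 CPM in NC and 3205 and 3165 CPM in SPNS2, a 1.13-fold fall (log2 fold change -0.18, SE 0.032, edgeR adjusted p = 0.0246). The call was lost without any 1 of the 4 libraries (adjusted p from 0.0554 to 0.0940) and with DESeq2 (0.0726). Per kb, MT-CO1 stood at 1.49 and 1.45 times MT-CO2 in NC and at 1.24 and 1.29 times in SPNS2.

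MT-CYB, cytochrome b, is the only mitochondrial subunit of complex III, which passes electrons from ubiquinol to cytochrome c. It had 2582 and 2494 CPM in NC and 2721 and 2685 CPM in SPNS2. Both SPNS2 libraries were above both NC libraries, by an amount that was not called (log2 fold change 0.09, SE 0.036, edgeR adjusted p = 0.147). Set against MT-CYB per kb, MT-CO1 stood at 3.52 and 3.47 times in NC and at 2.44 and 2.54 times in SPNS2.

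Neither mRNA of complex V, whose rotation makes ATP, was called, and both fold changes were near 0. MT-ATP8, a short subunit of the membrane part, had 1017 and 1017 CPM in NC and 1063 and 1010 CPM in SPNS2, with overlapping groups (log2 fold change 0.03, SE 0.045, edgeR adjusted p = 0.710). MT-ATP6, which forms the proton path beside the rotating ring, had 690 and 698 CPM in NC and 720 and 703 CPM in SPNS2 (log2 fold change 0.04, SE 0.043, edgeR adjusted p = 0.602). With upper-quartile factors or library totals as the scale, the fold changes of MT-ND2, MT-ATP8 and MT-ATP6 turned to between -0.03 and -0.01, still not called. The ratio of MT-ATP8 to MT-ATP6 counts was 1.47 and 1.46 in NC and 1.48 and 1.44 in SPNS2. MT-ATP6 shares its last base with the first of MT-CO3 and lies on the same primary transcript. Yet MT-CO3 stood per kb at 5.70 and 5.49 times MT-ATP6 in NC and at 4.33 and 4.31 times in SPNS2. Counts of the nuclear copies of MT-ATP6, given below, are not part of this ratio.

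**Figure D2:**
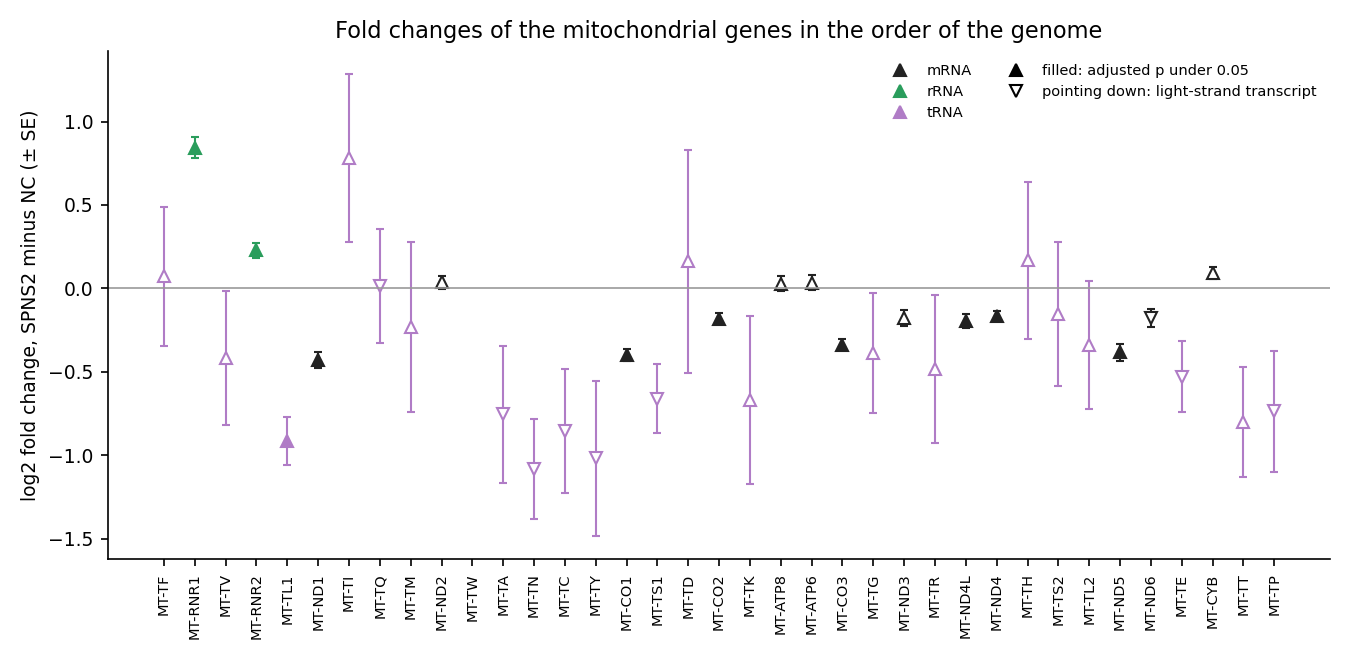
Log2 fold change, SPNS2 minus NC, with its SE (bars) for each mitochondrial gene in genome order, where filled marks are called and marks pointing down are light-strand transcripts; MT-TW was not tested. The 2 rRNAs lie above 0, at 0.84 and 0.23, the mRNAs spread between -0.43 and 0.09, and the tRNAs have wide errors.

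Among the 13 mRNAs, the fold change was only weakly related to the gene features that were looked at. Spearman's rho was -0.21 with gene length, -0.17 with the level per kb in NC and 0.26 with the order along the genome. These describe 13 genes that share the same 4 libraries. The 6 mRNAs with an incomplete stop codon had a median log2 fold change of -0.17, with 3 called lower. The 7 with a whole one had -0.18, with 4 called lower, where 11.3% of all genes were called lower. The fold changes of the bicistronic pairs lay close together, at 0.03 and 0.04 for MT-ATP8 and MT-ATP6 and at -0.20 and -0.17 for MT-ND4L and MT-ND4.

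Levels per kb (mean ± SD, n = 2) ranged in NC from 348 ± 4.21 CPM per kb for MT-ND6 to 7776 ± 269 CPM per kb for MT-CO1. After MT-CO1 came MT-CO3 (5705 ± 109), MT-CO2 (5280 ± 91.0) and MT-ATP8 (4913 ± 1.06), then MT-ND4, MT-ND4L, MT-CYB, MT-ND2, MT-RNR2, MT-ND3, MT-ND1, MT-ND5, MT-ATP6, MT-RNR1 and MT-ND6. Of neighbours in this order, only MT-RNR2 and MT-ND3 overlapped between the NC libraries. In SPNS2, MT-CO1 was again at the top (5893 ± 106 CPM per kb) and MT-ND6 at the bottom (308 ± 1.34 CPM per kb). There, MT-ATP8 (5006 ± 183) stood second, ahead of MT-CO2 (4656 ± 41.5) and MT-CO3 (4514 ± 84.9), MT-ATP6 stood above MT-ND1 and MT-ND5, and of neighbours only MT-ND1 and MT-ND5 overlapped. The level of MT-ATP8 per kb rests on a short gene that shares bases with MT-ATP6, so the places of both depend on how shared reads were counted. The level of MT-ATP6 also leaves out counts of its nuclear copies. These took 3.87% to 45.3% of the counts of MT-ATP6 with its copies.

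The rRNAs, the structural and catalytic RNAs of the mitochondrial ribosome, both rose. MT-RNR1 (M:648-1601), the RNA of the small subunit, had 351 and 342 CPM in NC and 593 and 649 CPM in SPNS2. It rose 1.79-fold, the largest called change of the 15 mRNAs and rRNAs (log2 fold change 0.84, SE 0.064, edgeR adjusted p = 0.00375), and stayed called under every alternative run. MT-RNR2 (M:1671-3229), the RNA of the large subunit, had 2188 and 2097 CPM in NC and 2578 and 2440 CPM in SPNS2. It rose 1.17-fold (log2 fold change 0.23, SE 0.046, edgeR adjusted p = 0.0340). This call was lost with upper-quartile factors (adjusted p = 0.0534), with library totals (0.0653), and when NC replicate 1, NC replicate 2 or SPNS2 replicate 1 was left out (up to 0.127).

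The rRNA genes lie just upstream of MT-ND1 on the heavy-strand transcript, with tRNA genes between them. Per kb, MT-RNR2 stood at 1.13 and 1.11 times MT-ND1 in NC and at 1.86 and 1.67 times in SPNS2. MT-RNR1 stood at 0.262 and 0.267 of MT-RNR2 in NC and at 0.376 and 0.435 in SPNS2. For every 100 mitochondrial mRNA counts there were 6.81 and 6.73 rRNA counts in NC and 10.3 and 9.87 in SPNS2, so the SPNS2 libraries held more mitochondrial rRNA both per library and per mitochondrial mRNA.

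How a library was enriched bears on its rRNA, and whether poly(A) RNA was selected or rRNA removed is not given in the sources used here. Of 11 tested nuclear RNAs listed as lacking a poly(A) tail, 0 rose and 3 fell, where 12.1% of all genes were called higher and 11.3% lower. The median over these 11 was -0.02 on the log2 scale. The 3 that fell are histone mRNAs, and whether they carried a tail in these cells was not tested. The histone gene H1-2 fell from 65.5 to 23.7 CPM (log2 fold change -1.47, edgeR adjusted p = 0.00332), and H2AC6 and H2BC4 fell by 0.92 and 1.24 on the log2 scale (0.0395 and 0.0418), calls lost without any 1 of the 4 libraries (adjusted p from 0.0599 to 0.155). RN7SL1 and RN7SL2, the RNA of the signal recognition particle, were not called (edgeR adjusted p = 0.343 and 0.424), nor was RN7SK (0.584), and RMRP read 0.808 CPM in NC and 1.68 CPM in SPNS2 (0.0843). The nuclear long RNA MALAT1 read 176 CPM in NC and 180 CPM in SPNS2. The part of library enrichment in the rRNA result was not tested.

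The tRNA genes gave few reads. RNAs as short as a tRNA are known to be poorly captured by standard libraries, and reads in these genes may come from mature tRNAs or from uncut precursors. Of 21 tested tRNA genes 1 fell, 0 rose and 20 were not called, where 11.3% of all genes were called lower and 12.1% higher. The median of their log2 fold changes was -0.48, and 16 were below 0. Of all 22, 15 had both SPNS2 libraries below both NC libraries, 1 had both above and 6 overlapped, where 33.6% of all genes tested lay below and 32.4% above. Their summed level was 43.6 and 43.3 CPM in NC and 26.1 and 28.4 CPM in SPNS2, a ratio of 0.626. The median log2 fold change was -0.34 for the 13 tested tRNAs of the heavy-strand transcript and -0.74 for the 8 of the light-strand transcript. The difference was not tested, and the summed levels did not show it. Their ratio of SPNS2 to NC was 0.627 for the heavy-strand and 0.626 for the light-strand tRNAs. MT-TL1 alone gave 613 of the 881 heavy-strand tRNA counts in NC replicate 1 and 277 of 497 in SPNS2 replicate 1.

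MT-TL1 (M:3230-3304), the tRNA for leucine that reads UUA and UUG codons, lies between MT-RNR2 and MT-ND1 and was the tRNA gene with the most reads. It is shown with MT-TN, the tRNA for asparagine, and MT-TS1, one of the tRNAs for serine, which had the lowest adjusted p-values of the other tRNAs. The sequences are from GENCODE 29 in the direction of the tRNA itself, with the anticodon in capitals.

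MT-TL1: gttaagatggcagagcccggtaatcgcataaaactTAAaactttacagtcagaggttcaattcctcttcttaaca

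MT-TN: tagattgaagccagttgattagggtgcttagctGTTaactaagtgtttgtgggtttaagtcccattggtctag

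MT-TS1: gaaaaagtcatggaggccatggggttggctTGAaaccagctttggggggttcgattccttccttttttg

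MT-TL1 had 613 and 590 counts in NC and 277 and 349 counts in SPNS2, or 19.1 and 17.5 CPM against 8.999 and 10.46 CPM. It fell 1.88-fold (log2 fold change -0.91, SE 0.15, edgeR adjusted p = 0.0193). Both neighbours moved otherwise: MT-RNR2 rose, and MT-ND1 fell by less, so that there were 16.0 and 15.1 MT-TL1 counts per 1000 MT-ND1 counts in NC and 10.6 and 11.7 in SPNS2. The call was lost without any 1 of the 4 libraries (adjusted p from 0.0526 to 0.0861).

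MT-TN, from the light-strand transcript, had 69 and 61 counts in NC and 28 and 32 counts in SPNS2 (log2 fold change -1.08, SE 0.30, edgeR adjusted p = 0.0697). MT-TS1 had 138 and 136 counts in NC and 85 and 84 counts in SPNS2 (log2 fold change -0.66, SE 0.21, edgeR adjusted p = 0.0892). In both genes the groups lay apart, but at these counts the difference was not called. MT-TE, the tRNA for glutamate, had 115 and 124 counts in NC and 74 and 88 counts in SPNS2 (log2 fold change -0.53, SE 0.21, edgeR adjusted p = 0.151). MT-TI, the tRNA for isoleucine, was the 1 tRNA gene with higher values in both SPNS2 libraries, with 9 and 10 counts in NC and 16 and 16 counts in SPNS2 (log2 fold change 0.78, SE 0.50, edgeR adjusted p = 0.330). The remaining tested tRNA genes had between 8 and 70 counts in each library, and none of them was called at this depth.

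**Figure D3:**
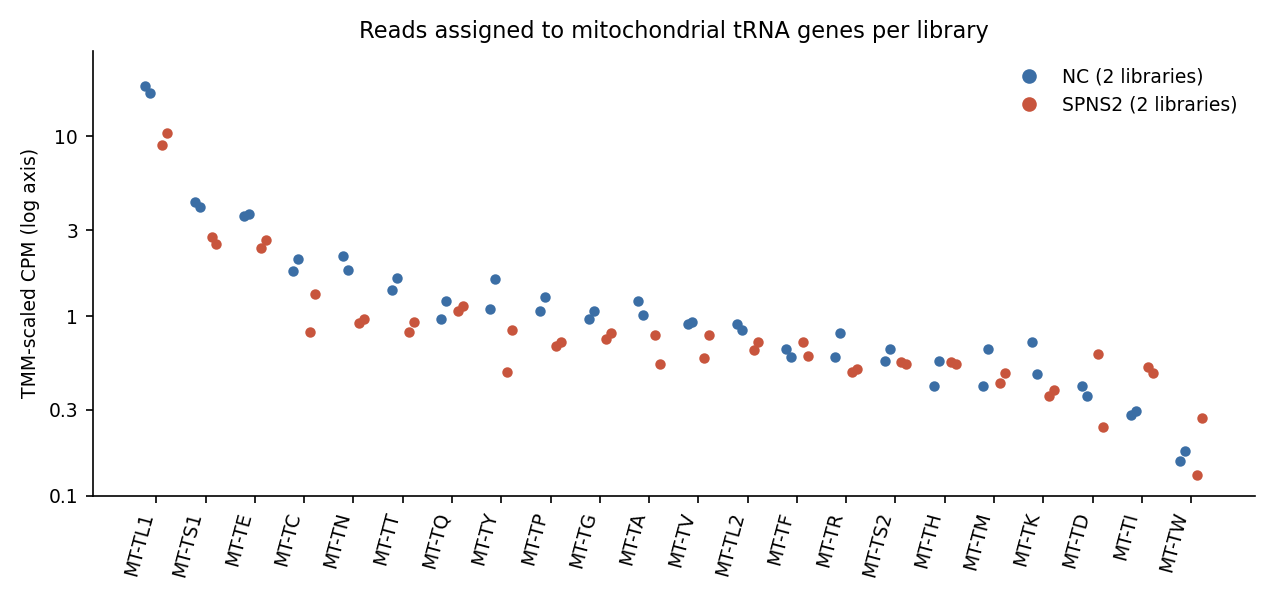
TMM-scaled CPM (log axis) of the 22 mitochondrial tRNA genes in order of their mean level, with 1 point per library (NC blue, SPNS2 red). MT-TL1 stands above all others at 8.999 to 19.1 CPM with separate groups, 15 of the 22 have both SPNS2 points below both NC points, and most lie near or below 1 CPM.

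The mRNAs took a smaller share of the SPNS2 libraries, so each was also set against the sum of the 13 mRNAs, the mitochondrial mRNA pool, by the same edgeR test with that sum as library size. On this scale some mRNAs must lie above and some below 0, and the median log2 fold change of all genes was 0.23. Of the 13 mRNAs, 4 were called higher, 2 lower and 7 were not called, where 23.4% of all genes were called higher and 7.13% lower. MT-CYB took 6.92% and 6.88% of the pool in NC and 8.81% and 8.58% in SPNS2 (log2 fold change 0.33, SE 0.036, edgeR adjusted p = 0.00606). MT-CO1 took 32.9% and 32.3% of the pool in NC and 29.03% and 29.40% in SPNS2 (log2 fold change -0.16, SE 0.027, edgeR adjusted p = 0.0179).

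MT-ND2 took 3.97% and 4.24% of the pool in NC and 4.94% and 5.00% in SPNS2 (log2 fold change 0.28, edgeR adjusted p = 0.0191). MT-ATP6, with 1.85% and 1.93% in NC and 2.33% and 2.25% in SPNS2, and MT-ATP8, with 2.73% and 2.81% in NC and 3.44% and 3.23% in SPNS2, gained share alike (log2 fold change 0.28 and 0.27, edgeR adjusted p = 0.0204 and 0.0245). MT-ND1 fell within the pool from 3.20% and 3.20% to 2.75% and 2.87% (log2 fold change -0.19, edgeR adjusted p = 0.0399). The mRNAs for cytochrome b, MT-ND2 and both complex V subunits thus took a larger share of the pool in SPNS2, and those for MT-CO1 and MT-ND1 a smaller one. The share of MT-ATP6 leaves out counts of its nuclear copies. Of the counts of MT-ATP6 with its copies, these took 45.3% and 11.0% in NC and 3.87% and 13.02% in SPNS2. Leaving out 1 library left 1 to 3 higher and 0 to 1 lower calls: 1 and 0 without NC replicate 1, 2 and 0 without NC replicate 2, 1 and 1 without SPNS2 replicate 1, and 3 and 1 without SPNS2 replicate 2. MT-CYB was the 1 mRNA called each time (adjusted p up to 0.0361).

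**Figure D4:**
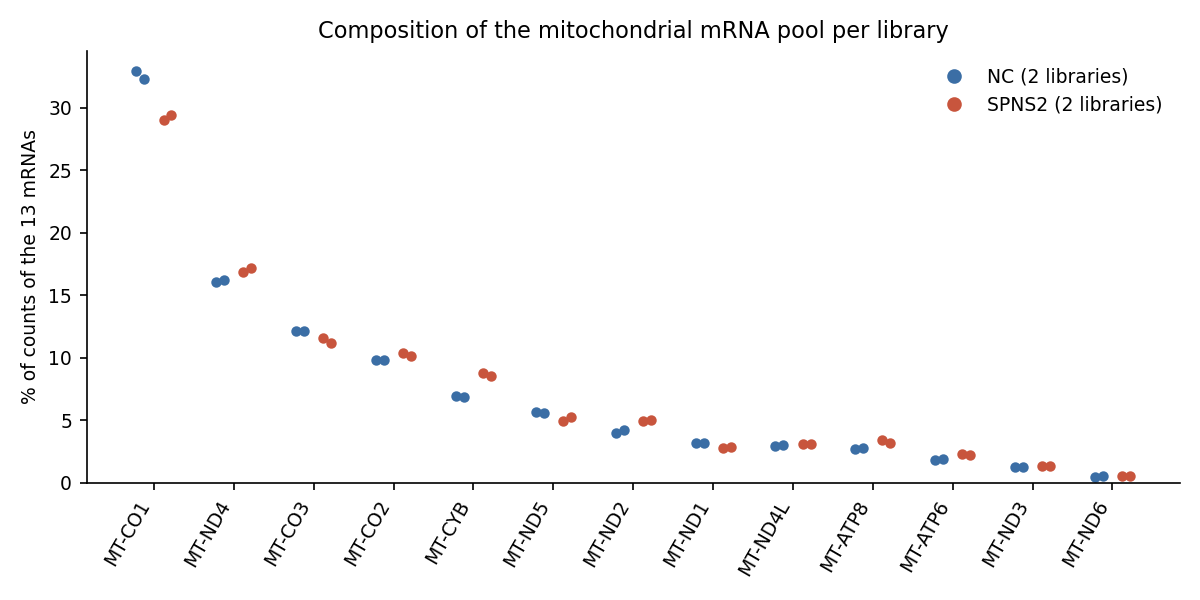
Share of the counts of the 13 mitochondrial mRNAs (%) taken by each mRNA, with 1 point per library (NC blue, SPNS2 red), in order of share. MT-CO1 takes 32.3% to 32.9% in NC and 29.03% to 29.40% in SPNS2, and MT-CYB, MT-ND2, MT-ATP8 and MT-ATP6 take more in both SPNS2 libraries.

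The nuclear genome carries many old copies of mitochondrial genes, and 402 genes of the table are named as such copies. Reads that match a copy and the mitochondrial gene alike may be counted for either or neither. Among them, 3 copies on chromosome 1 had 892 counts or more in every library. MTCO1P12 (1:631074-632616), 98.6% identical to MT-CO1, had 12347 and 12266 counts in NC and 9017 and 8376 in SPNS2 and fell (log2 fold change -0.46, SE 0.092, edgeR adjusted p = 0.0322). Unlike that of MT-CO1, this call was lost without NC replicate 1 (adjusted p = 0.121), NC replicate 2 (0.0907) or SPNS2 replicate 2 (0.0632). MTND2P28 (1:629640-630683), 98.2% identical to MT-ND2, had 6622 and 7388 counts in NC and 6584 and 7141 in SPNS2, no more changed than MT-ND2 (log2 fold change 0.01, edgeR adjusted p = 0.953). Copies took 12.03% to 12.52% of the counts of MT-ND2 with its copies and 2.66% to 3.17% of those of MT-CO1 with its copies, with shares that overlapped between the groups.

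MTATP6P1 (1:633696-634376) was different. It has 10 mismatches to the 681 bases of MT-ATP6 and had 18341 and 2913 counts in NC and 892 and 3510 in SPNS2, so that NC replicate 1 stood far above the other libraries and the groups overlapped (log2 fold change -2.29, SE 1.10, edgeR adjusted p = 0.207). Copies took 45.3% and 11.0% of the counts of MT-ATP6 with its copies in NC and 3.87% and 13.02% in SPNS2. With the copies added, the log2 fold change of MT-ATP6 was -0.39 (edgeR adjusted p = 0.294) in place of 0.04, and with copies other than MTATP6P1 added, an alternative chosen after its counts were seen, it was again 0.04. MTND4P12 and MTND1P23, the next most abundant copies, had at most 103 counts in a library.

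The respiratory complexes are built from subunits of both genomes, and the nuclear subunit mRNAs did not go down with the mitochondrial ones. Of 75 nuclear subunits of complexes I, III, IV and V, all tested, 17 rose, 1 fell and 57 were not called, and 54 of the 75 fold changes were above 0. Over all genes tested, 12.1% were called higher and 11.3% lower. Their median log2 fold change was 0.19, against -0.18 for the 13 mitochondrial mRNAs. Of 11 nuclear subunits of complex IV, 2 rose and 0 fell, but 0 were called higher without any 1 of the 4 libraries, and 2 were called lower with DESeq2. COX6A1 rose from 105 ± 0.201 to 133 ± 2.70 CPM (SD, n = 2; log2 fold change 0.34, edgeR adjusted p = 0.0228), and COX6B1, a subunit on the outer face of the complex, rose from 56.3 ± 2.34 to 70.7 ± 1.24 CPM (SD, n = 2; log2 fold change 0.33, edgeR adjusted p = 0.0401).

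The shares called over all genes, 12.1% higher and 11.3% lower, apply to each complex here. Of 37 nuclear subunits of complex I, 5 rose and 1 fell, a split that depended on the setting. DESeq2 called 9 higher and 4 lower, upper-quartile factors called 5 lower, and leaving out either library of the SPNS2 group gave 2 higher and 0 lower. NDUFS4, NDUFS5 and NDUFA2 rose by 0.88, 0.52 and 0.85 on the log2 scale (edgeR adjusted p = 0.0140, 0.0180 and 0.0188). NDUFS6, a subunit of the matrix arm, rose from 36.0 ± 5.61 to 69.0 ± 3.31 CPM (SD, n = 2; log2 fold change 0.94, edgeR adjusted p = 0.0146), and NDUFC1 fell from 24.5 ± 0.969 to 17.3 ± 0.455 CPM (log2 fold change -0.50, edgeR adjusted p = 0.0369). Of 9 nuclear subunits of complex III, 4 rose and 0 fell, with 1 to 2 higher when 1 library was left out (1 without NC replicate 1 or SPNS2 replicate 2). They were UQCRC1, UQCRQ, UQCR10 and UQCRH, with log2 fold changes of 0.60, 0.56, 0.52 and 0.34 (edgeR adjusted p = 0.00747, 0.0104, 0.0244 and 0.0301). Of 18 of complex V, 6 rose and 0 fell. Fewer were called higher when any 1 library was left out, and without SPNS2 replicate 2 the calls were no longer all higher. ATP5F1C, the stalk subunit that turns in the catalytic head, rose by 0.46 on the log2 scale (edgeR adjusted p = 0.0184), and ATP5MC1, ATP5PD and ATP5PF rose by 0.64, 0.34 and 0.31 (0.020002, 0.0305 and 0.0419). Complex II, which has no mitochondrial subunit, had 0 of 4 called in either direction and a median of 0.13.

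**Figure D5:**
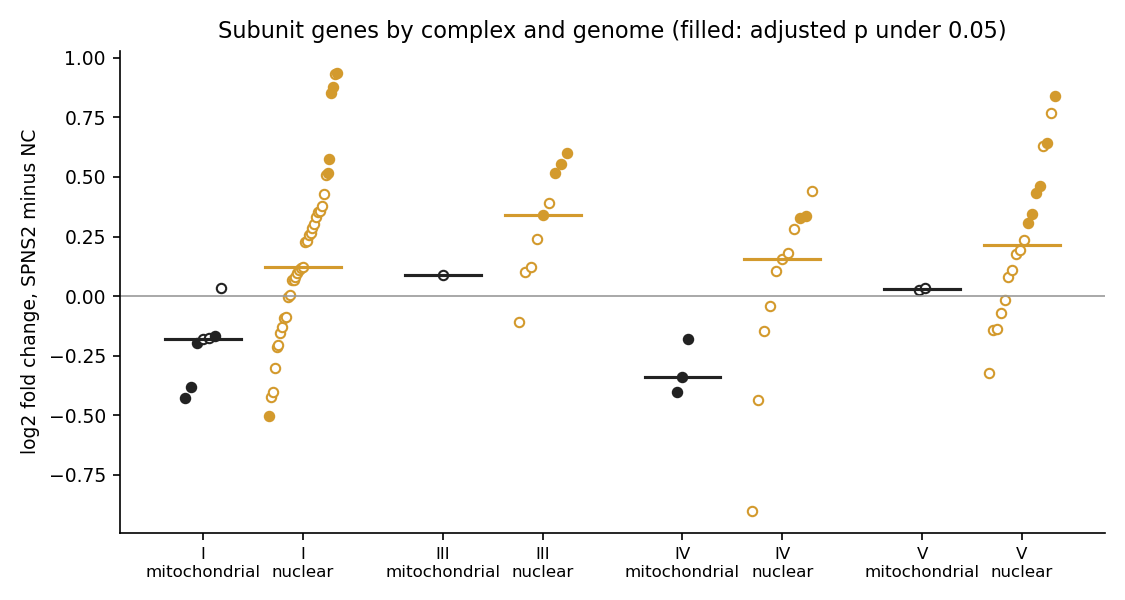
Log2 fold change, SPNS2 minus NC, of each subunit gene of complexes I, III, IV and V, split by the genome that encodes it (mitochondrial black, nuclear gold), with filled points called and a line at the median. In complexes I and IV the mitochondrial medians are -0.18 and -0.34 and the nuclear medians 0.12 and 0.15. In complexes III and V both medians lie above 0, but the mitochondrial ones rest on 1 and 2 genes, with 0 called.

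Of 10 genes for mitochondrial transcription, 1 rose and 0 fell, a share close to the 12.1% called higher over all genes. TFB2M, which helps the polymerase open the promoter, rose from 19.7 ± 1.18 to 27.1 ± 0.307 CPM (SD, n = 2; log2 fold change 0.46, edgeR adjusted p = 0.0436), a call lost without any 1 of the 4 libraries (adjusted p from 0.109 to 0.157). The polymerase POLRMT (68.6 CPM in NC, 78.5 in SPNS2, edgeR adjusted p = 0.261), the packaging and initiation factor TFAM (52.4 and 60.6 CPM, 0.151) and the elongation factor TEFM (13.7 and 12.4 CPM, 0.467) were not called.

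Of 31 genes for the processing, stability and decay of mitochondrial RNA, 2 fell and 0 rose. The shares called over all genes were 11.3% lower and 12.1% higher. NGRN, which is needed for the mitochondrial large-subunit rRNA to accumulate, fell from 161 ± 0.557 to 107 ± 0.384 CPM (SD, n = 2; log2 fold change -0.59, edgeR adjusted p = 0.00588) and was called with each library left out. FASTKD2, an RNA-binding protein that also acts on that rRNA, fell from 72.2 ± 1.70 to 53.0 ± 3.88 CPM (log2 fold change -0.45, edgeR adjusted p = 0.0283), a call lost without any 1 library (adjusted p from 0.0573 to 0.115). MT-RNR2 itself was among the genes that rose. LRPPRC, which binds and stabilises mitochondrial mRNAs, had 167 ± 9.50 CPM in NC and 141 ± 4.28 CPM in SPNS2 and was not called (log2 fold change -0.25, edgeR adjusted p = 0.0718), nor was its partner SLIRP (edgeR adjusted p = 0.497).

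Of 22 genes that copy and maintain the mitochondrial genome, 2 rose and 3 fell, shares close to the 12.1% and 11.3% over all genes, and 0 were called in either direction without any 1 of the 4 libraries. The replicative polymerase POLG (edgeR adjusted p = 0.701) and helicase TWNK (0.210) were not called. PRIMPOL, a primase that restarts stalled replication, fell from 18.2 to 9.95 CPM (log2 fold change -0.87, edgeR adjusted p = 0.0181), and TK2 and RRM2B, which supply deoxynucleotides, fell by 0.57 and 0.49 on the log2 scale (edgeR adjusted p = 0.0298 and 0.0344). SSBP1, the mitochondrial single-strand DNA-binding protein, rose by 0.29 and the nuclease and helicase DNA2 by 0.50 (edgeR adjusted p = 0.0416 and 0.0476). The files hold no count of mitochondrial DNA.

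Of 17 regulators of mitochondrial biogenesis, 1 rose and 3 fell, where 12.1% of all genes were called higher and 11.3% lower. The 2 best known coactivators moved in opposite directions. PPARGC1A fell from 11.6 ± 0.354 to 5.30 ± 1.07 CPM (SD, n = 2; log2 fold change -1.13, edgeR adjusted p = 0.0246), and PPARGC1B had 7 and 4 counts in NC and 50 and 77 counts in SPNS2 (log2 fold change 3.52, edgeR adjusted p = 0.0147). Leaving out SPNS2 replicate 2 kept the PPARGC1A call (adjusted p = 0.0401) and each other library ended it (up to 0.0955), and the PPARGC1B call was lost without NC replicate 2 or SPNS2 replicate 2 (up to 0.0723). ESRRA, an orphan nuclear receptor that works with both, fell by 0.47 on the log2 scale (edgeR adjusted p = 0.0259), and PRKAA2, a catalytic subunit of AMP kinase, fell by 1.00 (0.0473). The calls of ESRRA and PRKAA2 were lost whichever library was left out. NRF1, which drives many nuclear respiratory genes, was not called (edgeR adjusted p = 0.273).

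Of 22 tRNA synthetase genes for mitochondria, 2 rose and 0 fell, where 12.1% of all genes were called higher and 11.3% lower. Those that rose were HARS2 for histidine (log2 fold change 0.76, edgeR adjusted p = 0.0106) and CARS2 for cysteine (0.41, 0.0284). The HARS2 call was lost without NC replicate 2, and the CARS2 call whichever library was left out. Of 14 translation and insertion factors, 2 rose and 1 fell, against the same shares over all genes. MTIF2, the initiation factor that brings the first tRNA to the ribosome, fell from 60.6 ± 1.26 to 35.3 ± 2.11 CPM (SD, n = 2; log2 fold change -0.78, edgeR adjusted p = 0.00843), a call that held with each library left out. GFM2 and the elongation factor TUFM rose by 0.61 and 0.27 on the log2 scale (edgeR adjusted p = 0.0268 and 0.0326). Neither of these calls held with each library left out.

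Of 20 tested genes for mitophagy and organelle mass, 3 rose and 1 fell, where 12.1% of all genes were called higher and 11.3% lower. The count called lower was 0 with any 1 library left out and 3 with DESeq2, upper-quartile factors or library totals. PINK1, the kinase that marks damaged mitochondria for removal, rose from 97.8 ± 0.277 to 264 ± 3.79 CPM (SD, n = 2; log2 fold change 1.43, edgeR adjusted p = 0.00111). VDAC1, an abundant channel of the outer membrane, rose from 229 ± 16.9 to 421 ± 1.98 CPM (log2 fold change 0.88, edgeR adjusted p = 0.00411). SQSTM1, an autophagy adaptor, rose by 0.43 on the log2 scale (edgeR adjusted p = 0.00856), and FBXL4, which restrains mitophagy, fell by 0.48 (0.0495). The lists hold 234 nuclear genes, most of them tested, of which 28 were called higher and 14 lower. Over all genes tested, 12.1% were called higher and 11.3% lower. The share of listed genes called higher was thus close to that of all genes, and the share called lower was smaller. With 1 library left out the counts were 9 to 11 higher and 3 to 5 lower. They were lowest for the higher calls without SPNS2 replicate 2 and for the lower calls without either NC replicate. Calls over all genes also became fewer in both directions with 1 library left out. Of the 42 calls, 7 held with each library left out in turn: NGRN, MTIF2, PINK1, SQSTM1, VDAC1, UQCRC1 and H1-2.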

How the data were processed

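RNA-seq of 4 U118-MG libraries was analysed. The values are raw counts per Ensembl gene, deposited by the authors without normalization. Per the submitters' processing notes, the build was hg38 and the tools were HISAT2 2.2.1, featureCounts 0.3 and Trim Galore 0.6.9. Not given in the sources used here are the annotation, the strand setting and how multi-mapping reads were counted. A row of annotation text with no counts was left out.

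Genes were kept by filterByExpr (minimum count 10, minimum total 15), scaled by TMM and compared with the two-sided quasi-likelihood test of edgeR 4.0.16 in R 4.3.3, with the group as the only term and Benjamini-Hochberg adjustment over 17853 genes. Unless another tool is named, every adjusted p comes from this test. The SE is the log2 fold change divided by the square root of F. Levels are TMM-scaled CPM, and levels per kb use gene lengths of GENCODE 29, in which all 37 genes were matched. A further fit took the summed counts of the 13 mRNAs as library size. The fits were run on simulated counts, drawn independently for each gene, as a check of the code. That check does not measure error rates in these data. Alternatives were DESeq2 1.42.0, limma-voom (limma 3.58.1), a robust fit, other scale factors, other filters, a replicate block, each library left out, and nuclear copies added.

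The members, gene lists and tests were chosen with earlier results of these data known. All 37 members are accounted for. Of nuclear genes, the text names POLRMT, TFAM, TFB2M, TEFM, LRPPRC, SLIRP, POLG, TWNK, PPARGC1A, NRF1 and SPNS2 whatever their p, up to 4 called genes with the smallest p of each of the 14 nuclear lists, and the 5 nuclear copies with the highest counts. NDUFC1, DNA2, RN7SL1, RN7SL2, RN7SK, RMRP and MALAT1 lie outside this rule and were named after their values were seen.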

Additional observations from a re-analysis of the deposited data

How the results depend on the processing

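With 2 libraries a group, few degrees of freedom limit small changes, and tRNA genes also lack depth. MT-ND1, MT-CO1, MT-CO3 and MT-RNR1 kept direction and call under every alternative of the library scale. Over all genes 2161 were called higher and 2010 lower, against 1039 and 937 with a replicate block and 950 to 1093 and 762 to 1051 with 1 library left out. Deviations of same-numbered libraries correlated at -0.08 over 17853 genes. This rests on 2 libraries a group and cannot show whether samples were processed in pairs. Under the replicate block 4 mitochondrial mRNAs were called lower, 11 listed nuclear genes higher and 5 lower, and 2 mRNAs higher and 1 lower within the mRNA pool. DESeq2 called 4 mRNAs lower, and leaving out 1 library 3 to 5. Listed nuclear genes called lower, 14 in the main analysis, were 24 with DESeq2, 23 with upper-quartile factors and 24 with library totals. Calls of lower over all genes also became more, at 2428, 2225 and 2289 in the same order, against 2010 in the main analysis. Of the listed nuclear genes, with 1 library left out 9 to 11 were higher and 3 to 5 lower. Within the pool, 4 mRNAs were lower with all mitochondrial genes as the pool and 4 with the pool without MT-CO1, and with 1 library left out 1 to 3 were higher and 0 to 1 lower. The causes were not tested.

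Directions that turned belong to genes that were not called on the scale concerned. With upper-quartile factors and library totals, log2 fold changes became -0.030 and -0.040 for MT-TQ, -0.010 and -0.020 for MT-ND2, -0.019 and -0.029 for MT-ATP8, -0.011 and -0.021 for MT-ATP6, and -0.041 and -0.050 for the copy MTND2P28, which was also -0.0069 with a minimum mean of 1 CPM. With nuclear copies added MT-ATP6 was -0.39. With 1 library left out, values ran from -0.042 to 0.20 for MT-TF, -0.14 to 0.19 for MT-TQ, -0.53 to 0.15 for MT-TM, -0.64 to 0.69 for MT-TD, -0.049 to 0.42 for MT-TH, -0.20 to 0.067 for POLG and -0.038 to 0.048 for MTND2P28. Within the pool they ran from -0.39 to 0.0034 for MT-TV, -0.31 to 0.41 for MT-TM, -0.43 to 0.94 for MT-TD, -0.46 to 0.012 for MT-TR and -0.039 to 0.22 for MT-TS2. MT-TM was -0.039 with all mitochondrial genes as the pool. With the pool without MT-CO1, MT-TM was -0.065, MT-CO2 -0.011, MT-ND3 -0.0044, MT-ND4L -0.026 and MT-ND6 -0.0090.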
